A study of Mus musculus with 2 samples.

Results

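The genes described here carry out or control the display of peptides, and for Cd1d1 of lipids, on MHC class I and class I-like molecules. The set is a list of 10 gene symbols, B2m, H2-K1, H2-D1, H2-T23, H2-Q7, Tap1, Tap2, Tapbp, Nlrc5 and Cd1d1, and was chosen by name, with earlier results of these data known. All 10 were matched by gene identifier among the 43346 gene rows of the deposited tables, with 52 annotated transcripts between them. All 10 also reached a mean of 1 TPM (a level corrected for transcript length and for the size of the library), as did 14139 genes in all, although Tap2 did so through 1 library alone.

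Nearly every nucleated cell shows samples of its own proteins to CD8 T cells on class I molecules. A class I molecule is a polymorphic heavy chain paired with the invariant light chain beta-2 microglobulin. The proteasome cuts proteins into peptides, the TAP transporter pumps these peptides into the endoplasmic reticulum, and tapasin and chaperones hold empty heavy chains there until a peptide fits. In the lung this display is known for its part in the clearance of infected epithelial cells by T cells, and natural killer cells read its absence.

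The samples were 2 libraries of polyadenylated RNA, both from the lung of 1 C57BL/6J mouse, an adult female aged 10 weeks. The labels call them technical replicates 1 and 2 of biological replicate 1, place replicate 2 at a later time, and give extraction with a kit for lipid-rich tissue. They form 1 group with no treatment, so the design holds no comparison of conditions, and every spread given here (SD, n = 2) is a spread between technical replicates whose source within tissue handling, extraction or library making is not recorded. The libraries held 16104442 and 17110882 expected counts (reads assigned to genes by the authors, fractions included), which were above 0 for 17892 and 19597 genes.

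The labelled tissue was checked against marker genes. Alveolar epithelial markers were detected for 5 of 5 genes and summed to 1676 TPM (replicate 1) and 45893 TPM (replicate 2), and airway markers (4 of 4) summed to 22170 and 179253 TPM. The 4 markers of all leukocytes summed to 405 and 342 TPM, the 7 of macrophages and dendritic cells to 2091 and 3583 TPM, and the 5 of T and NK cells to 26.3 and 49.4 TPM. Markers of thymocytes summed to at most 0.37 TPM, with Ptcra at 0 in both libraries. Cardiac muscle markers had sums of 99.04 and 865 TPM. The liver marker total, 68.1 and 62.7 TPM, rested mainly on Cyp2e1, which was at 66.66 and 60.03 TPM. The other liver markers were low, with Alb at 1.44 and 1.91 TPM, Apoa1 at 0 and 0.74 TPM, and Ttr at 0 in both libraries. In a whole tissue, fewer cells of a type and less RNA per cell cannot be told apart, and this holds for every level below.

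B2m lies apart from the MHC, on chromosome 2 (GRCm38, 122147686 to 122153083, plus strand). Of the other genes, 7 lie in or beside the MHC on chromosome 17: Tapbp from 33915899 to 33929292 and H2-K1 from 33996017 to 34000347, then Tap1 from 34187553 to 34197225 and Tap2 from 34203527 to 34216321, then H2-D1 from 35262730 to 35267499, H2-Q7 from 35439155 to 35443773 and H2-T23 from 36029773 to 36032855. Cd1d1 is on chromosome 3 (86995834 to 86999441) and Nlrc5 on chromosome 8 (94434356 to 94527272). H2-K1, H2-T23 and Cd1d1 are on the minus strand and the others on the plus strand.

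Class I promoters are known for an interferon-stimulated response element, a kappa B site and an SXY module, to which NLRC5, RFX and NF-Y proteins are recruited. RefSeq promoter windows (GRCm38.p6, 250 bases before to 50 after a start site) were found for 7 of the 10 genes and were searched on both strands for 4 motifs. These were GAAA and GAAA with 2 bases between them for the interferon-stimulated response element, GGGGA and TCCCC with 1 base between them for the kappa B site, TGACGC for the X2 part and CCAAT for the Y part of the SXY module. The motifs occur in 3.44%, 0.0487%, 7.40% and 37.4% of 32851 such windows, so a CCAAT match by itself is common. H2-K1 and H2-D1 were among the 16 windows with the kappa B letters, and each also held TGACGC and 2 CCAAT matches in the same order. The stretches from the first to the last match are shown 5′ to 3′ on the strand of the gene, because they show how alike the H2-K1 (chr17:34000330-34000463, minus strand) and H2-D1 (chr17:35262918-35263050, plus strand) promoters are and how B2m (chr2:122147543-122147643, plus strand) and H2-T23 (chr17:36032744-36032830, minus strand) differ. H2-Q7 (chr17:35439110-35439148, plus strand) held the paired CCAAT matches alone. Capitals mark the motif matches in either orientation.
H2-K1: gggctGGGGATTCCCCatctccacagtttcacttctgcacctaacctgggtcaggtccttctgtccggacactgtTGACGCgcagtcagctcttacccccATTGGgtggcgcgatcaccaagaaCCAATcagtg
H2-D1: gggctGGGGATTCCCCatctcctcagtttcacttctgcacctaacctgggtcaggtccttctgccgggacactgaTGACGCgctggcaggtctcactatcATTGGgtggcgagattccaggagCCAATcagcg
B2m: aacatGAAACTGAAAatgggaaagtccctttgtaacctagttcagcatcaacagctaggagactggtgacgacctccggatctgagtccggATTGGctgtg
H2-T23: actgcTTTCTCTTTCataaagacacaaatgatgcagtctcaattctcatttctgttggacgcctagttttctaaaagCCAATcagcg
H2-Q7: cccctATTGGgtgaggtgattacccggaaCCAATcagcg

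In these letters B2m and H2-T23 carried a match to the interferon motif, starting at positions -139 and -124 from the start site, and none to the kappa B letters. Tap1 held 1 CCAAT match and Tapbp 2, with none of the other 3 motifs. A match is a run of letters and not a measured binding site, and the lack of one says only that these letters are not in this window.

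B2m, the shared light chain, was the most abundant message of the set by TPM in both libraries, and by far in replicate 1 only. Its level was 6439 and 1921 TPM in replicates 1 and 2 (mean 4180 ± 3195, SD, n = 2), rank 18 and rank 53 among the genes tested. The 10 genes together made up 6774 and 4013 TPM, or 0.677% and 0.401% of all TPM (mean 0.539% ± 0.195, SD, n = 2). B2m held 95.1% of that sum in replicate 1 and 47.9% in replicate 2. By counts, which are not corrected for length, H2-D1 was above B2m in replicate 2 (22965 beside 20514).

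The classical heavy chains H2-K1 and H2-D1 bind the peptides that CD8 T cells of this strain recognise. H2-K1 was at 116 and 764 TPM in replicates 1 and 2 (mean 440 ± 458, SD, n = 2). H2-D1 was at 104 and 826 TPM (mean 465 ± 510). The 2 genes lay close together in each library, with H2-D1 at 0.896 times H2-K1 in replicate 1 and 1.08 times in replicate 2, so their order swapped while each moved several-fold between the libraries.

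The non-classical heavy chains were less abundant. H2-T23 encodes Qa-1, which presents leader peptides of other class I molecules to the CD94-NKG2A receptor of NK cells, and was at 8.15 and 202 TPM (mean 105 ± 137, SD, n = 2). H2-Q7 encodes a Qa-2 molecule and was at 8.53 and 92.1 TPM (mean 50.3 ± 59.1). Both stood below H2-K1 and H2-D1 in each library. Cd1d1, which presents lipids to NKT cells, was at 39.3 and 15.8 TPM (mean 27.6 ± 16.6), and thus above both non-classical heavy chains in replicate 1 and below both in replicate 2.

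TAP1 and TAP2 are the subunits of the peptide transporter, and tapasin, encoded by Tapbp, bridges it to the heavy chain. Tap1 was at 3.61 and 20.0 TPM in replicates 1 and 2 (mean 11.8 ± 11.6, SD, n = 2). Tap2 was at 0.49 TPM, from 3 counts, and 44.4 TPM, from 1797 counts (mean 22.5 ± 31.1). The ratio of Tap1 to Tap2 was 7.37 in replicate 1 and 0.4503 in replicate 2, so the libraries disagree on which gene total was higher. In replicate 1 the posterior mean TPM bounds overlapped, at 3.04 to 4.75 for Tap1 and 0.367 to 3.62 for Tap2. In replicate 2 a retained-intron transcript held 35.1 TPM of Tap2. The protein-coding Tap2 transcript ENSMUST00000025197 was at 0.06 and 9.34 TPM. The main protein-coding Tap1 transcript of each library was above it, at 2.41 and 13.25 TPM. Tapbp was at 42.6 and 121 TPM (mean 81.9 ± 55.6), above both subunits in each library. Nlrc5, the transactivator of class I genes, was at 12.0 and 6.31 TPM (mean 9.17 ± 4.04) and had the lowest mean of the set. This gene total rested mainly on short transcripts, as given below.

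Ordered by mean TPM, the genes ran B2m, H2-D1, H2-K1, H2-T23, Tapbp, H2-Q7, Cd1d1, Tap2, Tap1, Nlrc5. The ranges over the 2 libraries overlapped for every pair of neighbours in this order except B2m and H2-D1, whose means differed 8.99-fold. The order of neighbours was the same in both libraries for B2m above H2-D1, H2-K1 above H2-T23 and Tapbp above H2-Q7, and it swapped for the remaining 6 pairs.

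**Figure D1:**
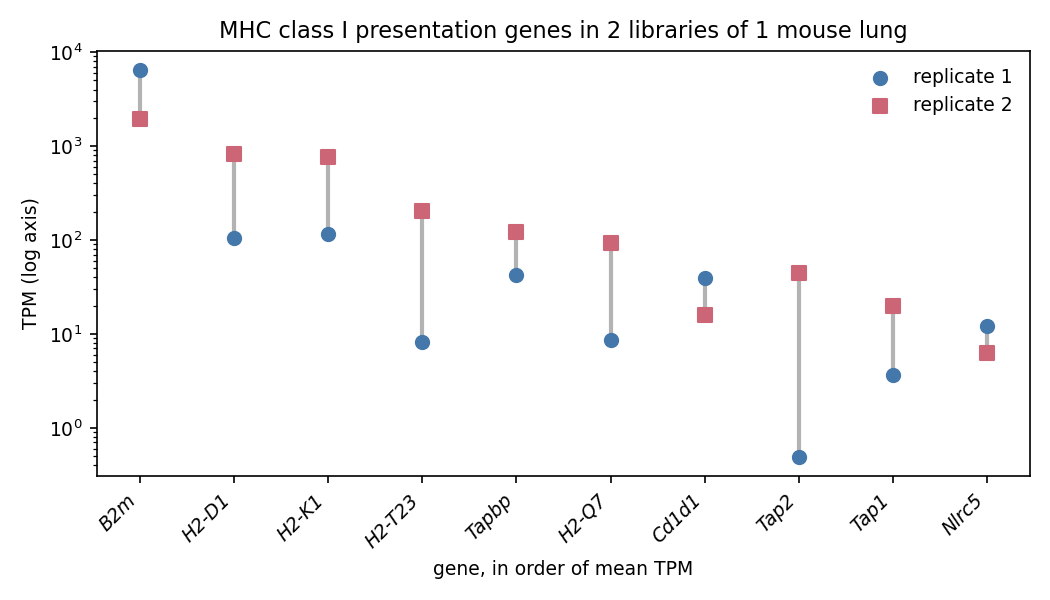
Deposited TPM (log axis) of the 10 class I presentation genes, in order of mean TPM, with replicate 1 as circles and replicate 2 as squares and a grey line joining the values of a gene. B2m, Cd1d1 and Nlrc5 were higher in replicate 1 and the other 7 genes in replicate 2, with the widest gap for Tap2, from 0.49 to 44.4 TPM.

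Because a class I molecule takes 1 light and 1 heavy chain, the message levels of the chains were compared within each library. The 4 heavy chain genes H2-K1, H2-D1, H2-Q7 and H2-T23 summed to 237 and 1884 TPM in replicates 1 and 2 (mean 1060 ± 1165, SD, n = 2). B2m stood at 27.2 times that sum in replicate 1 and at 1.02 times in replicate 2. With the classical H2-K1 and H2-D1 alone the ratios were 29.3 and 1.21, and with all other listed H2 heavy chain genes added they were 16.4 and 0.887. B2m message by TPM thus far exceeded heavy chain message in replicate 1 and was close to it in replicate 2, under each of these sums. The mean of the main ratios has an SD larger than itself (14.1 ± 18.5, n = 2). None of these sums adjusts for base composition, with which the ratios between the libraries moved, as given below.

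**Figure D2:**
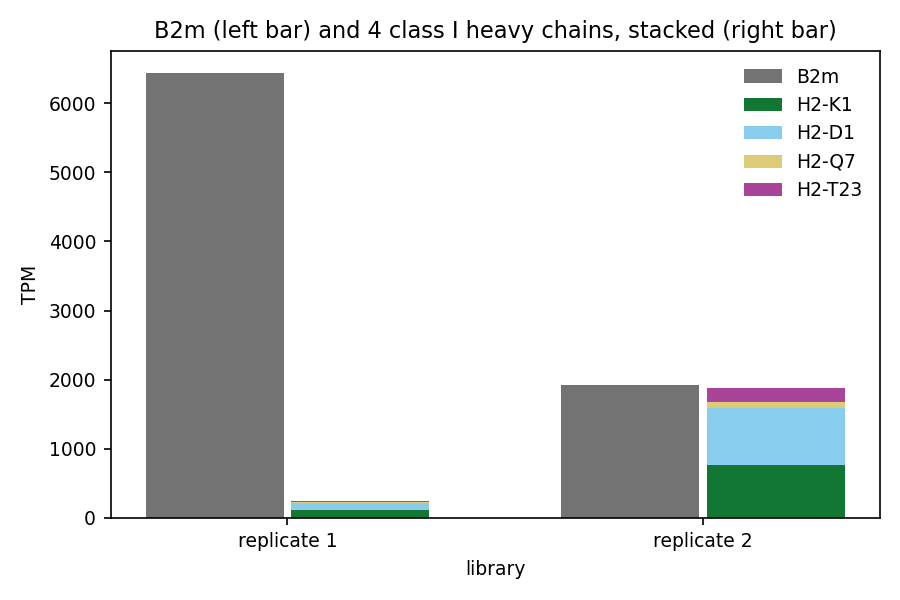
TPM of B2m (grey bars) beside the stacked TPM of H2-K1, H2-D1, H2-Q7 and H2-T23 in each library. In replicate 1 the bars stand at 6439 against 237 TPM, and in replicate 2 at 1921 against 1884 TPM.

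The gap between the libraries was measured for each gene as the log2 ratio of replicate 2 over replicate 1, from expected counts scaled by TMM, and a gene was called higher or lower past 2-fold. With 1 library a side no p-value was computed, and the 95% intervals given cover counting error only. Of the 10 genes, 7 were over 2-fold higher in replicate 2, 1 was over 2-fold lower and 2 were within 2-fold. Over all 14139 genes tested, 39.3% were called higher and 28.2% lower, 67.5% in all, so calls in either direction were frequent everywhere. The median log2 ratio of the 10 genes was 2.53, beside 0.19 for all genes tested.

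The largest ratio belonged to Tap2, whose 3 counts in replicate 1 and 1797 in replicate 2 gave a 403-fold difference with an interval from 161 to 2282. The ratio of its TPM was 90.7, since the authors' mean transcript length for the gene went from 721 to 2746 bases. By posterior mean TPM, 1.83 (0.367 to 3.62) in replicate 1 and 43.6 (41.0 to 46.2) in replicate 2, the log2 ratio of Tap2 was 4.57. By counts it was 8.65, so the size of this ratio depends on how the 3 counts are treated. Among the heavy chains, H2-T23 was 26.8-fold higher in replicate 2 (22.5 to 32.5), from 123 and 4222 counts. H2-D1 was 9.81-fold higher (9.36 to 10.3), from 1836 and 22965 counts, and H2-K1 7.23-fold higher (6.90 to 7.60), from 1849 and 17050 counts. H2-Q7 was 5.34-fold higher by counts (4.73 to 6.06), from 297 and 2023 counts, and 10.8-fold higher by TPM. The intervals of these 4 heavy chain genes do not overlap, so genes of one family differed in how far they shifted by more than counting error.

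Tap1 was 6.29-fold higher in replicate 2 (5.15 to 7.81), from 105 and 845 counts, and Tapbp 2.70-fold higher (2.53 to 2.87), from 1293 and 4444 counts. B2m went the other way and was 3.05-fold lower in replicate 2 (2.998 to 3.097), from 49049 and 20514 counts. Cd1d1 was 1.53-fold lower (1.34 to 1.75), from 477 and 397 counts, which is within 2-fold, but its TPM was 2.49-fold lower. Called on deposited TPM, Cd1d1 passed the threshold and 7 of 10 genes were higher and 2 lower, beside 37.2% and 31.9% of all genes tested; called on the posterior mean TPM the counts were the same, beside 35.8% and 30.2%. Nlrc5 had nearly the same counts in both, 212 and 240, and a ratio of 0.888 (0.735 to 1.07).

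These ratios moved with base composition. GC content, taken as the mean over the annotated transcripts of a gene, was 41.2% for B2m, which placed it in the lowest decile of the genes tested. It was 48.0% for Cd1d1, 51.9% for Nlrc5, 52.7% for H2-D1, and between 55.6% and 60.5% for H2-T23, H2-Q7, H2-K1, Tap1, Tap2 and Tapbp. Across the 10 genes, which share both libraries and one scaling, GC content and log2 ratio had a Pearson r of 0.663 and a Spearman rho of 0.552. Across 14067 genes with a reference transcript the same values were 0.765 and 0.820. The median GC content was 55.6% for the set and 50.4% for all genes tested.

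The base composition of the set can be read from the coding sequence, here of the coding transcript of highest mean TPM in each gene. For Cd1d1 this was ENSMUST00000063869, with 615 coding bases, which held 51.1% of the gene in replicate 1 and 0% in replicate 2. Its values need not hold for ENSMUST00000029717, which held 76.8% in replicate 2. For Tap2 it was ENSMUST00000025197, which held 21.0% in replicate 2, where a retained-intron transcript held more. Coding GC content was 49.6% in B2m, 55.1% in Cd1d1, 60.2% in H2-K1, 61.0% in H2-D1, 59.6% in Tap2 and 62.9% in Tapbp, and the 3′ untranslated region of B2m had 32.4% GC against 45.7% and 45.3% in H2-K1 and H2-D1. The coding window of 90 bases with the highest GC content is shown for 6 genes from the GENCODE M21 transcripts, to let the less GC-rich light chain and lipid-presenting chain be read beside the GC-richer heavy chains, transporter subunit and tapasin. Capitals mark runs of at least 4 consecutive G or C. The windows have 54.4% GC in B2m (coding bases 250 to 339), 63.3% in Cd1d1 (436 to 525), 75.6% in H2-K1 (29 to 118), 76.7% in H2-D1 (1 to 90), 70% in Tap2 (276 to 365) and 72.2% in Tapbp (219 to 308).
B2m: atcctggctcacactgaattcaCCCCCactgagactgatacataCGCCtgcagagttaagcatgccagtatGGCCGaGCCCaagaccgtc
Cd1d1: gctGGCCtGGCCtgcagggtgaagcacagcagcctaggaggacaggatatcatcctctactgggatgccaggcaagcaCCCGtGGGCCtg
H2-K1: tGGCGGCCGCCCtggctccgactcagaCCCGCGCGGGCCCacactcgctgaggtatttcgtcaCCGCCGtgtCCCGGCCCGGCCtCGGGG
H2-D1: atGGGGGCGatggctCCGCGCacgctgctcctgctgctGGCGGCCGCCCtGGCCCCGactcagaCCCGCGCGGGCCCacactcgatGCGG
Tap2: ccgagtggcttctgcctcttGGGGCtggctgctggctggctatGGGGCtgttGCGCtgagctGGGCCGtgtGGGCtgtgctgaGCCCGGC
Tapbp: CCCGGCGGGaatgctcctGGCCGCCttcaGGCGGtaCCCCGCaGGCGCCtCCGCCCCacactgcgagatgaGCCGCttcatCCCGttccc

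In these windows the capital runs covered 18 bases in B2m and 17 in Cd1d1, but 47 in H2-K1, 48 in H2-D1, 31 in Tap2 and 49 in Tapbp. The H2-K1 and H2-D1 windows code for residues of the signal peptide and for the start of the peptide-binding alpha 1 domain.

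Set against genes of the same decile of GC content, 6 of the 10 genes lay between the quartiles (B2m, H2-K1, H2-Q7, Tap1, Nlrc5 and Cd1d1) and 4 outside. The B2m ratio of -1.61 stood beside a median of -1.92 in its decile, and 70.01% of that decile were lower. H2-K1 (2.85) and Tap1 (2.65) stood beside a median of 3.61 in theirs, and H2-Q7 (2.42) beside 2.51. Cd1d1 (-0.61) stood beside -0.50, and Nlrc5 (-0.17) beside 0.70. H2-D1 (3.29) lay above 81.2% of its decile, H2-T23 (4.75) above 84.1% and Tap2 (8.65) above 90.6%, while Tapbp (1.43) lay above only 11.3% of genes of like GC content.

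With the lowess trend of all genes on GC content subtracted, 3 of the 10 genes (H2-D1, H2-T23 and Tap2) were over 2-fold higher in replicate 2, beside 22.6% of all genes, and 2 (Tapbp and Nlrc5) were over 2-fold lower, beside 20.5%. The median of the set became -0.16. B2m, H2-K1, H2-Q7, Tap1 and Tapbp changed sign, B2m to 0.18 and Tapbp to -3.73. The result depends on which transcripts give the GC content: with the transcript of highest mean TPM alone, an alternative added after these results were seen, H2-D1 came to 0.02, Nlrc5 to 0.22, H2-Q7 to -1.76 and Tap1 to -1.40, and 2 genes (H2-T23 and Tap2) were higher beside 18.4% of all genes and 3 (Tapbp, Tap1 and H2-Q7) lower beside 16.3%. H2-T23 and Tap2 were thus over 2-fold higher, and Tapbp over 2-fold lower, under both trends. The part of GC content in the ratios was not tested beyond these values.

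**Figure D3:**
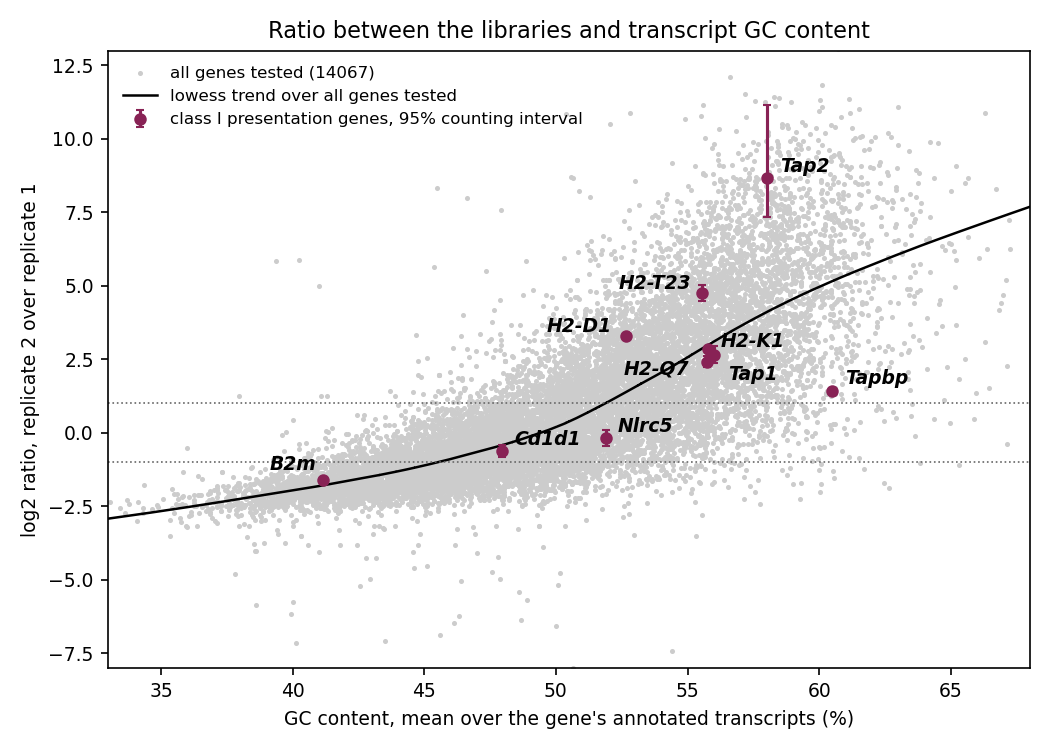
Log2 ratio of replicate 2 over replicate 1 against mean transcript GC content (%), with all genes tested in grey, their lowess trend as a line, the class I presentation genes as labelled points with 95% counting intervals, and dotted lines at 2-fold. B2m lies near the trend at the AT-rich end, H2-T23, H2-D1 and Tap2 lie above it, and Tapbp lies below it at 60.5% GC. Axis limits leave out a few of the grey genes.

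Leukocytes are rich in class I messages, so markers of all leukocytes were read beside these ratios. Their summed level was nearly the same in both libraries, 405 and 342 TPM, with 2 of the 4 being over 2-fold higher in replicate 2 (Coro1a, 23.5 and 163 TPM, and Laptm5, 9.38 and 90.2 TPM) and 2 lower (Cd53, 265 and 57.9 TPM, and Ptprc, 107 and 30.9 TPM). Of the macrophage and dendritic cell markers, 6 of 7 were over 2-fold higher in replicate 2 and none was lower, beside 39.3% higher over all genes tested and 61.98% higher in the decile that holds their median GC content of 53.7%. B cell markers had 3 of 4 higher and 1 lower, and T and NK cell markers 2 of 5 higher and 1 lower. Endothelial markers had 2 of 5 higher and 1 lower, and fibroblast markers 2 of 5 higher and 2 lower. Alveolar (4 of 5), airway (3 of 4) and cardiac muscle (4 of 4) markers were also mostly higher, so such a shift was not particular to macrophages and dendritic cells. The part of these markers in the class I ratios was not tested.

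Transcript use also differed between the libraries. Among the 8 genes of the set with several annotated transcripts and at least 1 TPM in both libraries, the transcript with the largest share of the gene's TPM differed in 5 (H2-K1, H2-Q7, Tap1, Nlrc5 and Cd1d1), beside 31.7% of 8231 such genes. H2-D1, H2-T23 and Tapbp kept their main transcript, which held 79.7% and 90.6%, 92.3% and 95.8%, and 100% and 83.0% of the gene. B2m has a single annotated transcript, of 860 bases.

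In H2-K1 the change was between protein-coding transcripts of like length. ENSMUST00000025181 held 43.4% of the gene in replicate 1 and 86.7% in replicate 2, and ENSMUST00000172912 held 43.8% and 9.82%. In H2-Q7 it was between classes of transcript. A retained-intron transcript of 4209 bases, ENSMUST00000173788, held 70.4% in replicate 1 and 11.4% in replicate 2, and protein-coding transcripts together held 29.7% and 80.2%. The TPM of H2-Q7 in protein-coding transcripts therefore differed more between the libraries than the TPM of the whole gene.

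In Tap1, 2 protein-coding transcripts changed places. ENSMUST00000041633 held 66.8% and 30.6%, and ENSMUST00000170086 held 16.9% and 66.2%, although the deposited credibility intervals of the former overlapped between the libraries (0.976 to 3.11 and 2.67 to 8.86 TPM). In Tap2, replicate 2 had 79.0% in a retained-intron transcript of 2561 bases and 21.0% in the protein-coding transcript of 3442 bases, or 9.34 TPM. The 3 counts of replicate 1 cannot give shares. Tapbp was all protein-coding in replicate 1, and in replicate 2 a retained-intron transcript of 614 bases held 16.9%.

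In Nlrc5 the point estimates and the posterior means differed. By the former, a protein-coding transcript of 1721 bases, only 414 of them coding, held 99.3% in replicate 1 and 0% in replicate 2. In replicate 2 a retained-intron transcript of 1727 bases held 68.4%. The deposited posterior means divided the gene less sharply. They gave 57.2% and 24.5% for that coding transcript and 39.4% and 41.0% for the retained-intron one. The credibility intervals of both transcripts overlapped between the libraries. The transcript of 6945 bases, the longest of the gene, did differ: it was at 0.08 TPM (0.0218 to 0.170) in replicate 1 and 1.19 TPM (0.879 to 1.33) in replicate 2. So the level of Nlrc5, 12.0 and 6.31 TPM, rested mainly on short transcripts, and the longest one was higher in the library where the gene's TPM was lower. By counts the longest transcript held 6.01 of 212 in replicate 1 and 127 of 240 in replicate 2.

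In Cd1d1 the protein-coding ENSMUST00000063869 held 51.1% in replicate 1 and 0% in replicate 2, and the protein-coding ENSMUST00000029717 held 0% and 76.8%. These transcripts have 1421 and 1946 bases, and the mean length of the gene went from 1264 to 1774 bases. TPM divides a count by that length, and the TPM of Cd1d1 differed more between the libraries than its counts did.

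**Figure D4:**
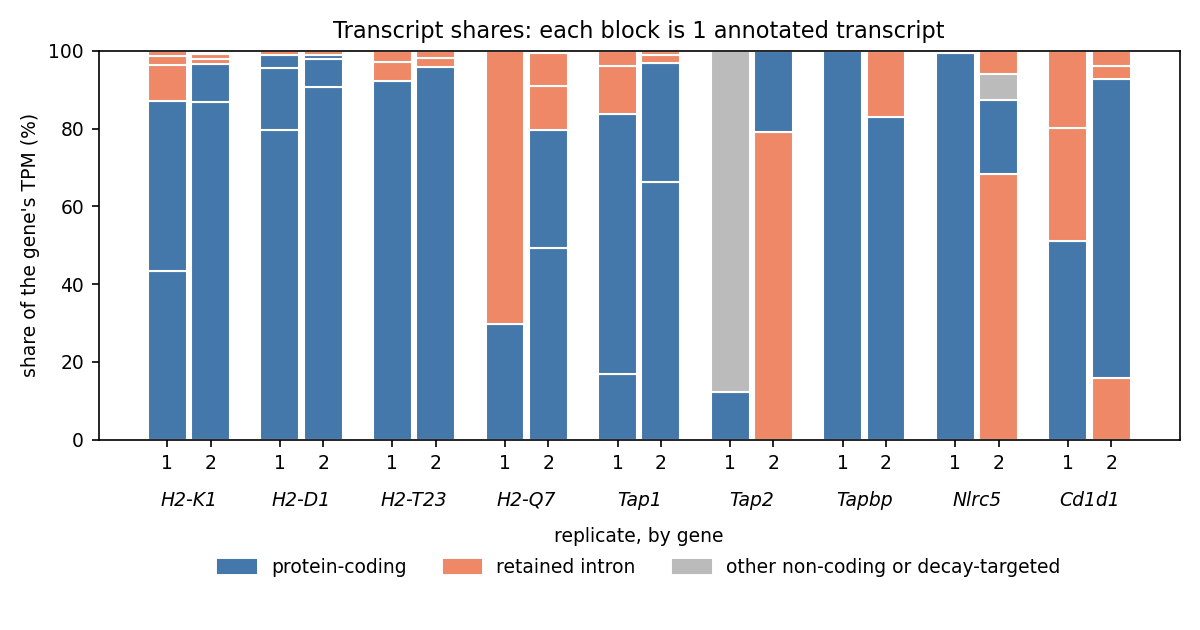
Share of each gene's TPM (%) by annotated transcript in replicates 1 and 2, for the 9 genes with several transcripts, with protein-coding transcripts in blue, retained-intron transcripts in orange and other classes in grey. The coding share went from 29.7% to 80.2% in H2-Q7. In Nlrc5 it went from 100% to 18.9% by these point estimates (58.2% to 43.0% by posterior means). The Nlrc5 transcript with 99.3% in replicate 1 has only 414 coding bases, and the longest coding one was at 0.08 and 1.19 TPM. The bars of Tap2 in replicate 1 rest on 3 counts.

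Class I heavy chains resemble one another, so reads can match several genes. Of the 50-base windows of the main transcript, 8.79% in H2-K1, 14.3% in H2-D1, 28.8% in H2-T23, 19.9% in H2-Q7, 22.6% in Cd1d1, 2.00% in Tapbp, 0.861% in Tap1, 0.995% in Tap2 and none in B2m or Nlrc5 also occur in a transcript of another gene. Of the 100-base windows, 4.64% in H2-D1, 7.28% in H2-T23, 6.47% in H2-Q7 and 15.7% in Cd1d1 are shared, and none in H2-K1, B2m, Nlrc5, Tap1 or Tap2. Tapbp shared 0.107%. The read length was not given in the sources used here. At 100 bases the partner of Cd1d1 is Cd1d2, which was at 0.07 and 0.35 TPM, and that of H2-Q7 is H2-Q5, at 0.82 and 7.37 TPM. H2-D1 and H2-T23 share windows with 9 genes each, among them one another and H2-Q1 (3.10 and 0.67 TPM) and H2-T22 (11.2 and 75.2 TPM). The posterior SD that the authors deposited for the count was largest for H2-Q7, at 2.58 counts in replicate 1 and 7.23 in replicate 2, and was 0 for H2-K1 and B2m, so the deposited uncertainty from shared reads was small beside the ratios. The division of shared reads between genes carries this deposited uncertainty for H2-D1, H2-T23, H2-Q7 and Cd1d1, whose SD was above 0 in replicate 2. It was not checked further for any gene.

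Overlapping genes were also read. Psmb9, on the opposite strand to Tap1, was at 10.4 and 54.9 TPM, and Zbtb22, on the same strand as Tapbp, was at 1.43 and 16.8 TPM. Whether strand was used in counting is not given in the sources used here. The deposited posterior SD of the Tap1 count was 0 in both libraries. The origin of reads in the overlap of Tap1 and Psmb9 was not tested further.

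The wider class I pathway was read through 5 lists, each against the shares of all genes tested that were called higher (39.3%) and lower (28.2%). Among other class I and class I-like heavy chains, 24 of 28 listed genes were matched, 5 of them were at 0 counts in both libraries, and 15 were tested. Of these 6 were over 2-fold higher in replicate 2 and 3 lower, with a median log2 ratio of 0.58 beside 0.19 for all genes. H2-Q4 was the most abundant at 69.8 and 95.4 TPM, within 2-fold by counts. H2-T22 was at 11.2 and 75.2 TPM, 6.80-fold higher by counts (5.91 to 7.89). H2-Q6, the neighbour and near relative of H2-Q7, was at 16.5 and 52.3 TPM, 3.50-fold higher (3.12 to 3.95). Fcgrt, the neonatal Fc receptor that also pairs with beta-2 microglobulin, was at 1.61 and 79.4 TPM, 53.6-fold higher (37.6 to 82.3), and Hfe, the iron-sensing class I-like protein, at 37.1 and 27.7 TPM, within 2-fold.

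For peptide loading and quality control, 1 of 7 tested genes was over 2-fold higher in replicate 2, 4 were lower and 2 within, with a median log2 ratio of -1.501 and a median GC content of 47.7%. Pdia3, the disulphide isomerase ERp57 of the loading complex, was at 1090 and 233 TPM, 3.56-fold lower by counts (3.48 to 3.65). The chaperones Hspa5 (926 and 323 TPM) and Canx (342 and 83.7 TPM) and the peptide-trimming Erap1 (55.5 and 15.9 TPM) were 2.83-fold, 3.66-fold and 3.15-fold lower. Calreticulin, Calr, was at 327 and 325 TPM, a pair that differed little by TPM, and 1.40-fold higher by counts.

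For peptide supply, 14 of 15 listed symbols, all but Nrdc, were matched to genes and tested. Of these, 8 were over 2-fold higher in replicate 2, 1 lower and 5 within. Their median log2 ratio was 1.60 and their median GC content 51.7%. The proteasome activator subunits Psme1 (135 and 206 TPM) and Psme2 (140 and 237 TPM) were 2.52-fold and 3.66-fold higher by counts. The constitutive catalytic subunit Psmb6 was at 15.99 and 276 TPM, 20.1-fold higher (16.6 to 24.9), and Psmb7 at 114 and 140 TPM, within 2-fold. Nrd1, a peptidase, was at 142 and 48.2 TPM, within 2-fold by counts. The remaining catalytic subunits, named after their values were seen, were also over 2-fold higher in replicate 2, both the constitutive Psmb5, at 1.55 and 170.8 TPM, and those of the immunoproteasome, Psmb8 at 2.05 and 111 TPM, Psmb9 at 10.4 and 54.9 TPM and Psmb10 at 0.57 and 106 TPM.

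Of 16 transcriptional regulators of class I genes, 7 were over 2-fold higher in replicate 2, 5 lower and 4 within, with a median log2 ratio of 0.26. Irf1, which binds interferon-stimulated elements, was at 6.16 and 63.3 TPM, 17.2-fold higher (13.97 to 21.7). Irf2 (57.0 and 21.8 TPM) and Atf1 (70.6 and 20.3 TPM) were 2.36-fold and 3.10-fold lower, and Nfkb1 (15.4 and 41.5 TPM), a subunit of the factor that binds the kappa B site, was 2.76-fold higher.

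Of 10 tested receptors that read class I molecules, 7 were lower in replicate 2, 2 higher and 1 within. Their median log2 ratio was -2.12 and their median GC content 40.1%, which falls in the lowest decile, where 92.04% of all genes were lower. Klrd1, the CD94 chain that reads Qa-1, was at 69.0 and 12.6 TPM, 4.70-fold lower (3.88 to 5.77), while H2-T23, which encodes its ligand, was higher. Klra8 (31.3 and 6.50 TPM), an Ly49 receptor, and Klrk1 (18.8 and 5.48 TPM), which encodes NKG2D, were 4.36-fold and 2.85-fold lower. With the GC trend subtracted, the list medians were -0.73 for other heavy chains, -0.09 for peptide loading, 1.67 for peptide supply, -0.37 for regulators and -0.03 for receptors. Some tested genes reached the mean of 1 TPM through a single library and were under 1 TPM in the other, so these counts and medians carry the filter: 3 in other heavy chains, 2 in peptide supply, 2 in regulators, 1 in receptors and none in peptide loading.

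**Figure D5:**
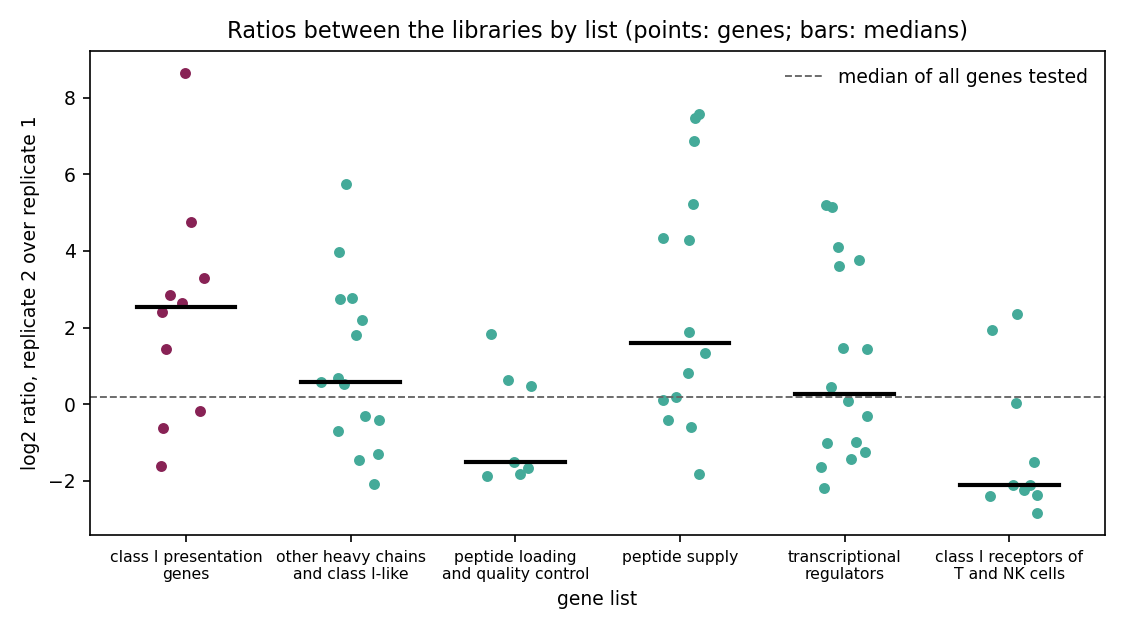
Log2 ratio of replicate 2 over replicate 1 for each tested gene of the class I presentation set and of the 5 pathway lists (points, spread sideways for legibility), with the median of each as a bar and the median of all genes tested, 0.19, as a dashed line. The medians run from 2.53 in the presentation set to -2.12 in the receptors.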

How the data were processed

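The 2 libraries of 1 mouse lung were treated as 1 group of technical replicates. A gene and a transcript table per library were deposited on mm10 with annotation M4, per the labels and the descriptions that came with the files. The aligner and quantifier were not given in the sources used here. The authors' expected counts, per the file headers, estimate the reads of each gene and need not be whole. TPM values were deposited by the authors in 2 forms, a point estimate and a posterior mean with credibility bounds, and so was the percent of its gene's TPM that each transcript holds. The deposited credibility bounds and the posterior SD of each count are score columns of the authors, per the file headers, on the TPM and the count scale.

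Symbols, coordinates and sequences of transcripts were taken from GENCODE M21 on GRCm38, which matched 42462 of 43346 gene rows, and promoter windows came from RefSeq on GRCm38.p6. Expected counts were rounded to whole numbers and scaled by TMM in edgeR 4.0.16 (R 4.3.3), with library totals of 16104423 and 17110871. Log2 ratios used a prior of 0.5 counts and genes whose mean TPM was 1 or more, and were called past 2-fold. Intervals are exact Clopper-Pearson intervals at 95% and cover counting error alone, as reads were counted without molecular identifiers and may repeat a molecule. The trend on GC content was fitted by lowess (span 0.3, statsmodels 0.14.6). The calculation of ratios was tested on simulated data. Python 3.11.15, pandas 2.3.3, numpy 2.4.6, scipy 1.17.1 and matplotlib 3.10.9 were used. Alternatives were total counts, DESeq2 1.42.0 size factors, ratios of TPM, a prior of 5 counts, no filter, a minimum of 10 TPM, the GC trend, and each library left out.

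The genes of the set and the lists were chosen with earlier results of these data known. Named genes are the 10 of the set, the 5 listed genes of highest mean TPM in each list if at 10 TPM or more, genes sharing windows of 100 bases, and for the 3 most abundant genes of the set the 2 genes nearest in log2(TPM + 1). Marker genes, overlapping genes and catalytic proteasome subunits beyond this rule were named after their values were seen. One gene that met this rule is not reported here. A planned comparison of protein sequences was not made here.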

Additional observations from a re-analysis of the deposited data

How the results depend on the processing

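No paired analysis was possible because the libraries form 1 group, and a call with 1 library a side has no replicate check. Of 89 pairs of a gene and an alternative setting, 75 kept the call given above. These pairs include the settings of no filter and of a minimum of 10 TPM, which do not enter the ratio of a gene. The call of a gene could not change under them. With the GC trend subtracted, the median log2 ratio was -0.16, with 3 genes higher and 2 lower, and the values were 0.18 for B2m, -0.13 for H2-K1, -0.55 for H2-Q7, -0.45 for Tap1 and -3.73 for Tapbp. With the trend on the main transcript, added after the data were seen, the median was -0.031, with 2 higher and 3 lower, and the values were 0.075 for B2m, -0.69 for H2-K1, -1.76 for H2-Q7, -1.40 for Tap1 and -2.55 for Tapbp. By ratios of deposited TPM and of posterior mean TPM, 2 genes were lower, since Cd1d1 passed the threshold. Scaling by total counts gave a median of 2.80 and moved the median of all genes from 0.19 to 0.45. The cause of these shifts was not tested. DESeq2 size factors and a prior of 5 counts changed no call. No filter on low values could change none, and at a minimum of 10 TPM Nlrc5 was not tested. Leaving out a library gave a summed level of the set from 4013 to 6774 TPM and a ratio of B2m to heavy chains from 1.02 to 27.2. The number of genes with differing main transcripts was 5 of 8 by posterior means, beside 32.4% of all such genes, 5 of 8 with at least 100 counts, beside 26.7%, and 4 of 7 over protein-coding transcripts only, beside 28.2%. Depth limited Tap2 most, at 3 counts in replicate 1.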

Other observations

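The genes outside the set whose levels over the 2 libraries were nearest to those of its 3 most abundant genes were sought by distance in log2(TPM + 1), a likeness over 2 points only. For B2m they were mt-Nd4 (7974 and 1522 TPM, distance 0.456) and Eif1 (3525 and 1167 TPM, distance 1.13). For H2-K1 they were S100a6 (112 and 739 TPM, distance 0.0699) and Rpl3 (131 and 888 TPM, distance 0.278). For H2-D1 they were S100a6 (distance 0.191) and Atp5l (84.8 and 787 TPM, distance 0.298).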
